A study of Mus musculus with 24 samples.

Results

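Colonic and small intestinal endothelial cells of the mouse that carried CD31 and not the Rspo3 reporter (CD31+ Rspo3-) were compared. The libraries were chosen by the tissue mark, the CD31 sign and the reporter sign in the column names of the deposited count table, and were 6 of the 24 libraries in all, 3 from the colon and 3 from the small intestine. In every group the cells were Epcam- CD45- intestinal stromal cells, from mice aged 8 to 12 weeks on a C57Bl6 background, split by CD31 and by expression of an Rspo3 GFP transgene. The 3 other pairs of tissue groups (CD31+ Rspo3+, CD31- Rspo3- and CD31- Rspo3+, each with 3 libraries per tissue) served only to ask whether a tissue difference was shared. The labels do not give the construction of the transgene or the stretch of small intestine taken, and nothing says whether separate mice gave the 3 libraries of a group. The p-values therefore measure only library-to-library spread, possibly technical. Libraries 1 to 3 of a group are numbered by column order.

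CD31, encoded by Pecam1, is an adhesion protein of endothelium, the lining of blood and lymph vessels. Intestinal blood capillaries are fenestrated, with Plvap forming the diaphragms of their pores, while lymphatic vessels, set by the transcription factor Prox1, carry fluid, immune cells and, in the small intestine, dietary fat. R-spondin 3 amplifies Wnt signals to the crypt stem cells, and lymphatic endothelium and some fibroblasts are its known sources in the gut. Removing the reporter-positive cells would therefore take lymphatic cells out of the CD31+ gate, but the share left there was not measured. The colon meets a denser microbiota than the small intestine, and both tissues keep a record of their position along the gut in Hox genes.

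The 6 libraries held 15271866, 13439203 and 10380378 estimated counts (small intestine) and 20755019, 20814963 and 22899519 (colon), against 8462041 to 29214487 over all 24. Levels are CPM values, in which each count is divided by its TMM-adjusted library total. A gene was called different where edgeR's quasi-likelihood test gave a Benjamini-Hochberg adjusted p under 0.05 over the 19050 genes tested. Pecam1 stood at 1229, 1091 and 1078 CPM in small intestinal and 1468, 1486 and 1061 CPM in colonic libraries, and Rspo3 at 24.1, 15.3 and 21.5 against 15.1, 11.1 and 15.9 CPM. The groups overlapped for both genes. In the reporter-positive CD31+ cells the mean Rspo3 level was 385 CPM in the small intestine and 373 CPM in the colon, so Rspo3 RNA separated the gates as labelled. Grem1, a BMP antagonist of fibroblasts, was low, at 3.25, 3.04 and 2.84 against 1.60, 5.55 and 28.8 CPM, with colonic library 3 far above the others.

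Higher in colonic CD31+ Rspo3- cells were 11 of 24 genes of the interferon response, 6 of 18 of antigen presentation, 6 of 23 immediate early and heat shock genes, 4 of 23 of hypoxia and glycolysis and 4 of the 8 posterior Hox genes that passed the filter. Interferon, antigen presentation and stress genes were in part also higher in the colon in both CD31- gates. Higher in small intestinal cells were the Wnt ligand gene Wnt2, the alarmin gene Il33, the retinoic acid receptor gene Rarb, the plasminogen activator gene Plat and 5 of 15 lymphatic genes, the last count falling to 1 without colonic library 1, colonic library 3 or small intestinal library 3. General endothelial, capillary and venous genes were almost all uncalled, as were most genes tested. In all, 844 of the 19050 genes (4.43%) were called, of which 518 (2.72%) were higher and 326 (1.71%) lower in the colon. The libraries of both tissues did not overlap for 498 of the former and 317 of the latter, against 20.0% of all genes tested. The split was 61.4% higher in the colon, but 41.5% with limma on log2 TPM, 45% with a fit of only these 6 libraries, 50.4% without colonic library 3 and 51.4% without small intestinal library 2. Without colonic library 3, 294 genes were higher and 289 lower, and without small intestinal library 2, 269 and 254. Of the called genes, 233 of the 518 and 103 of the 326 were gate-enriched, meaning that their mean in the higher tissue was at least as high as in both CD31- groups of that tissue. A fit of only these 6 libraries called 144 genes higher and 176 lower and lost 52 of the 121 named calls, 16 of which were kept with each library left out: Bmp5, Cidec, Fbln5, Fgl2, Hk2, Hmox1, Hoxa13, Hoxb5, Hoxc4, Id2, Myd88, Rbp4, Sfrp2, Slc27a4, Trim69 and Wnt5b (adjusted p from 0.052 to 0.11).

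Over all genes tested 4.43% were called, so a low number of calls in endothelial lists of 12 to 16 genes says little about them. None of 16 pan-endothelial genes was called by edgeR, and their median log2 difference (colon minus small intestine) was 0.13, against 0.04 for all genes tested. Kdr, the main VEGF receptor, was at 1128, 880 and 861 against 1741, 1274 and 1193 CPM, with an adjusted p of 0.75, and was the 1 gene of that list whose ranges did not overlap. Plvap was at 8481, 11371 and 7944 against 13773, 11463 and 10333 CPM, and the ranges overlapped. Of 16 capillary genes none was called, of 15 venous genes 1, the protease gene Ctsh (lower in the colon), and of 12 tip cell genes 1, the basement membrane gene Nid2 (higher). The edgeR call of Nid2 was lost whichever library was left out (adjusted p from 0.053 to 0.12). Madcam1, the homing receptor ligand of gut venules, was at 443, 939 and 433 against 482, 493 and 370 CPM.

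Of 15 arterial genes, Fbln5, an elastic fibre gene, was lower in the colon, and the chemokine gene Cxcl12 higher. Fbln5 was at 885, 1728 and 818 CPM in small intestinal and 371, 538 and 416 CPM in colonic libraries. All 3 colonic libraries lay below the lowest small intestinal one (log2 difference -1.37 ± 0.25 SE, adjusted p = 0.0028). The arterial connexin gene Gja5 was at 193, 413 and 153 against 118, 119 and 69.1 CPM and the arterial kinase gene Bmx at 90.5, 126 and 93.6 against 45.2, 38.9 and 15.7 CPM. Neither of these 2 passed the test (adjusted p = 0.16 and 0.17), though neither overlapped. In the other direction and also uncalled, the Notch ligand gene Dll4 averaged 301 against 424 CPM without overlap and Sox17 366 against 479 CPM. The arterial sums overlapped, at 4055, 4277 and 3271 against 3711, 3881 and 3402 CPM. In these bulk samples, fewer cells of a type and less RNA per cell cannot be told apart.

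**Figure D1:**
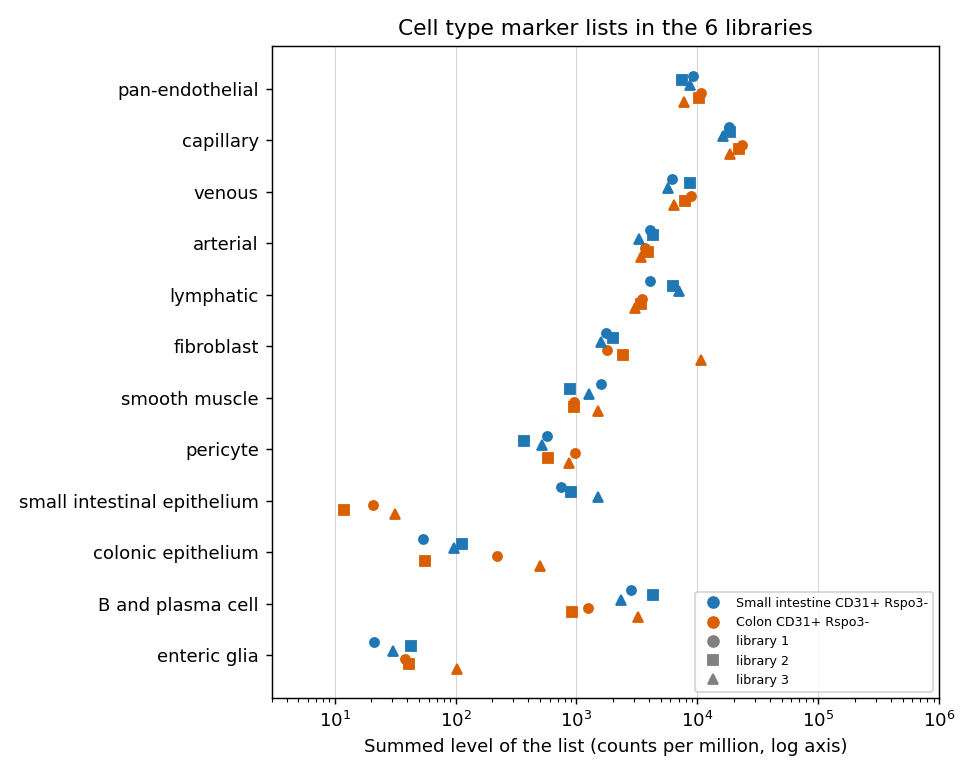
Summed level of each cell type marker list (CPM, log axis) in the 3 small intestinal (blue) and 3 colonic (orange) CD31+ Rspo3- libraries, 1 mark per library. Pan-endothelial sums were alike in both tissues (7472 to 10693), small intestinal epithelial sums separated the tissues, and the fibroblast sum was 10728 in colonic library 3 against 1587 to 2412 in the others.

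RNA of other cell types was present and moved with the tissue. Colonic library 3 stood apart: its fibroblast list summed to 10728 CPM, against 1783 and 2412 in the other colonic libraries and 1758, 2021 and 1587 in the small intestine. Dcn, a fibroblast proteoglycan, was at 341, 613 and 374 against 421, 471 and 2467 CPM. Of 12 fibroblast genes 3 were called higher in the colon, Mfap5, Col3a1 and Col1a2, and without colonic library 3 none of the 3 kept the call (adjusted p from 0.064 to 0.46). Without this library 33 of the 121 named genes called lost their call, and 73 of the 121 were called with each of the 6 libraries left out.

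Enterocyte transcripts marked the tissue of origin. Of 9 small intestinal epithelial genes 8 were lower in the colon, with a median log2 difference of -6.86, and the ninth, the Paneth cell lysozyme gene Lyz1, did not pass. Apoa1, an apolipoprotein of enterocytes, was at 227, 257 and 494 against 1.25, 0.241 and 0.474 CPM. Its mean was 6065 CPM in small intestinal CD31- Rspo3- cells. The digestive enzyme gene Sis, the apolipoprotein gene Apoa4 and the drug-metabolising genes Cyp3a11 and Cyp3a25 were likewise lower in the colon and far higher in CD31- Rspo3- cells. Apoc3 was counted in no colonic library, and was at least 328-fold lower there, taking 3 counts over the colonic libraries as the floor. In the other direction, the colonocyte genes Car1, Saa1 and Aqp8 were higher in the colon. The edgeR call of Aqp8 was lost without small intestinal library 1 or 2 (adjusted p up to 0.074). Car1 was at 0 in all 3 small intestinal libraries against 82.5, 20.9 and 248 CPM, but its call was lost without colonic library 3 and without each small intestinal library (adjusted p up to 0.086). The chemokine gene Ccl25, the arginase gene Arg2 and the glutathione transferase gene Gsta1, all lower in colonic CD31+ Rspo3- cells, had their highest mean in small intestinal CD31- Rspo3- cells, at 465, 504 and 473 CPM. Epcam was at 24.1, 39.4 and 65.6 against 23.2, 9.12 and 59.1 CPM. The immunoglobulin gene Igkc was at 2155, 3175 and 1756 against 835, 668 and 2288 CPM, and the leukocyte gene Ptprc stayed at or below 6.08 CPM in all 6 libraries.

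Posterior Hox genes separated the tissues. Hox genes encode transcription factors whose order in each cluster follows the body axis. Of 12 posterior Hox genes, 8 passed the filter, and of these 4 were higher in the colon and none lower by edgeR, with a median log2 difference of 6.94. In the small intestinal CD31+ Rspo3- libraries 10 of the 12 had no count. Genes at 0 there could pass the filter only through other groups and could not be called lower. The median therefore rests largely on counts of 0. Hoxa10 was at 0 in all 3 small intestinal libraries and at 19.4, 29.0 and 31.9 CPM in the colon. That is at least 388-fold higher, taking 3 counts over the small intestinal libraries as the floor (adjusted p = 2.8e-05). Hoxa11 was also at 0 in the small intestine and at 9.08, 7.77 and 14.5 CPM in the colon, at least 152-fold higher. Hoxa13 was at 1.90, 0.917 and 2.42 CPM in the colon only, and Hoxd11 was at 0, 0.0692 and 0 against 1.05, 2.17 and 2.16 CPM.

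Hoxa9 (chr6:52223100-52231089 of mm10, counted in the central list) was at 0, 0 and 2.15 CPM in small intestinal and 52.7, 48.3 and 33.6 CPM in colonic libraries. No library of 1 tissue reached the range of the other (log2 difference 6.06 ± 1.03 SE, adjusted p = 0.0015). The colonic mean of Hoxa9 was 44.9 CPM in this gate, 14.1 CPM in CD31- Rspo3- cells and 17.8 CPM in CD31+ Rspo3+ cells. Hoxa10 and Hoxa11 had higher colonic means in CD31- Rspo3- cells, at 67.9 and 36.9 CPM. The kit does not mark strand, and transcripts of neighbouring Hoxa genes and their antisense RNAs overlap, so the counts of single Hoxa genes are uncertain. For Hoxa9 no difference was detectable between this tissue difference and that in CD31+ Rspo3+ cells (log2 2.74 apart, adjusted p = 0.33) or in CD31- Rspo3- cells (-0.31, adjusted p = 0.95).

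Of 13 anterior Hox genes 3 were lower in the colon and none higher by edgeR. Hoxb5 was at 23.2, 25.9 and 19.3 against 11.2, 6.47 and 4.23 CPM, Hoxc5 at 3.84, 4.01 and 5.77 against 0.0499, 0 and 0 CPM, and Hoxc4 was lower as well. Among 25 other positional factors, 3 were higher and 2 lower. Pitx1, a factor of the hindgut and hindlimb region, was at 0.177, 0 and 0.0862 against 6.99, 10.5 and 60.1 CPM, highest in colonic library 3, and it was called with each library left out. Isl1 was at 0 in the small intestine and at 4.94, 3.09 and 6.51 CPM in the colon. Gata5, a factor of the small intestine, was at 2.54, 2.08 and 2.58 against 0, 0.0482 and 0 CPM. Pitx1 and Isl1 had a higher colonic mean in CD31- Rspo3- cells, at 201 and 28.1 CPM.

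**Figure D2:**
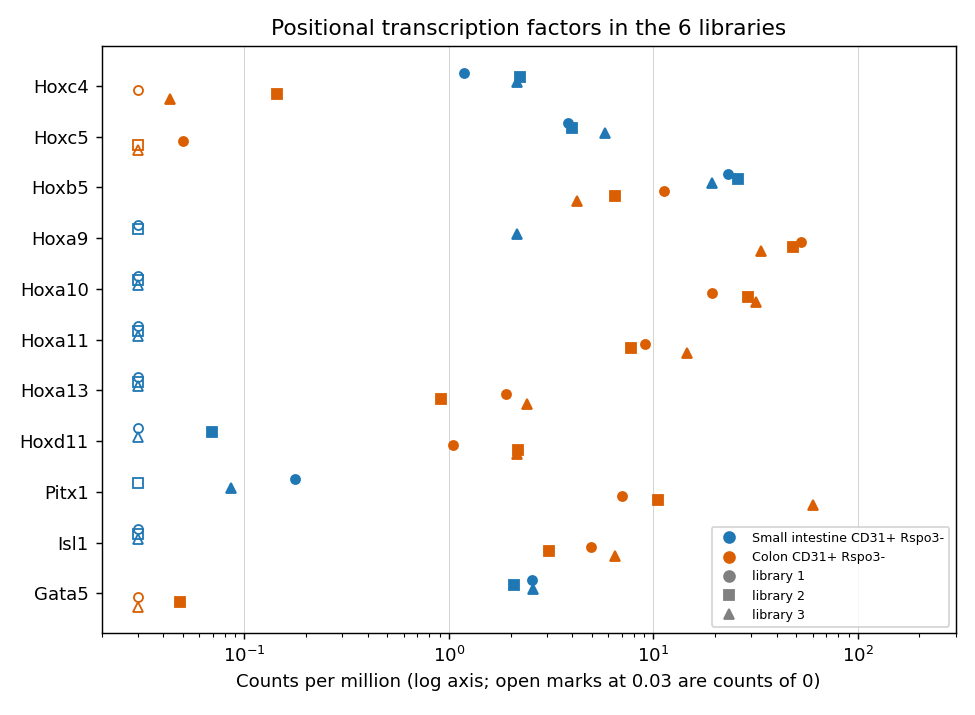
Levels of called Hox genes and other positional factors (CPM, log axis) in the 3 small intestinal (blue) and 3 colonic (orange) CD31+ Rspo3- libraries. Open marks placed at 0.03 are counts of 0. Hoxa9, Hoxa10 and Hoxa11 stood at 7.77 CPM or more in every colonic library and at 2.15 CPM or less in every small intestinal one.

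Interferon-stimulated genes were higher in colonic CD31+ Rspo3- cells. Of 24 genes of the interferon response, 11 were called higher and none lower by edgeR, 16 had all colonic libraries above all small intestinal ones, and the median log2 difference was 0.75. The rise was shared with CD31- Rspo3- cells (11 higher, 0 lower, median 0.70) and CD31- Rspo3+ cells (8 higher, 0 lower, median 0.67). In CD31+ Rspo3+ cells 2 were higher and 3 lower. The difference between gates was called for 1 of the 24 against CD31- Rspo3- cells and for 4 against CD31+ Rspo3+ cells. Isg15, a ubiquitin-like antiviral protein (chr4:156199424-156200818 of mm10), was at 83.8, 70.7 and 92.8 CPM in small intestinal and 313, 194 and 202 CPM in colonic libraries. The lowest colonic library lay above the highest small intestinal one (log2 difference 1.52 ± 0.21 SE, adjusted p = 0.00023). Cxcl10, a chemokine that attracts activated T cells, was at 138, 73.5 and 93.1 against 477, 425 and 375 CPM, and Cxcl9, which binds the same receptor, at 17.4, 12.8 and 13.1 against 82.2, 95.8 and 59.9 CPM. Both were separated between the tissues, with adjusted p of 0.00086 and 0.0026. Of the guanylate-binding proteins, which attack intracellular pathogens, Gbp6 was at 108, 165 and 119 against 517, 392 and 333 CPM and Gbp3 at 99.7, 132 and 86.2 against 222, 197 and 149 CPM. Gbp3 was not called without small intestinal library 3 (adjusted p = 0.058). The number of interferon genes higher in the colon was 5 without colonic library 1, without small intestinal library 1 or without small intestinal library 3, 7 without small intestinal library 2, and 10 without colonic library 3.

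The promoters of these genes are shown because 5 of the 8 called members with a RefSeq promoter entry hold the interferon-stimulated response element, searched on both strands as GAAA, any 2 bases and GAAA in the 250 bases before the start. The other 3 have none in this window. Over the list, 11 of 17 promoters held it, against 3.38% of 12767 tested genes with a promoter entry. The share was alike over the list and among its called members, so the element did not set the called genes apart from the list. The gamma-activated sequence TTCNNNGAA was found in 6 of 17, against 7.31%. A match is a description of letters and not of binding. The 80 bases that follow are given in the direction of the gene, 5′ to 3′ (RefSeq, GRCm38.p6), with each match in capitals, those that begin with TTTC being on the opposite strand and overlapping matches running together. They lie at chr4:156200840-156200919 (minus strand) for Isg15, chr5:92349058-92349137 (minus) for Cxcl10, chr3:142559964-142560043 (plus) for Gbp3, chr3:142620569-142620648 (plus) for Gbp2 and chr11:58199476-58199555 (plus) for Igtp.
Isg15: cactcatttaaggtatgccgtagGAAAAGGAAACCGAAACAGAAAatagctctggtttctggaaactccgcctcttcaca
Cxcl10: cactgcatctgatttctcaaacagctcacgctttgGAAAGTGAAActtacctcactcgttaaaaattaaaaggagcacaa
Gbp3: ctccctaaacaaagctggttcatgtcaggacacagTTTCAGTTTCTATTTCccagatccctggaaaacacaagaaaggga
Gbp2: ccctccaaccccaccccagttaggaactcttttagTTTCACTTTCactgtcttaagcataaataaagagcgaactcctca
Igtp: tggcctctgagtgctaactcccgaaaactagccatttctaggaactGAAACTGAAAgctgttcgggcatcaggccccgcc
Isg15 holds 3 overlapping matches and Gbp3 2, while Cxcl10, Gbp2 and Igtp hold 1 each.

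Some genes of antigen presentation rose too. Of 18 MHC class I and II genes, 6 were higher and none lower by edgeR, 16 did not overlap, and the median log2 difference was 1.01. The 6 were 3 without colonic library 2 or small intestinal library 2. In CD31- Rspo3+ cells 12 of the 18 were higher and 0 lower (median 1.47). In CD31- Rspo3- cells 5 were higher and 1 lower, and in CD31+ Rspo3+ cells 2 and 0. Tap1, a subunit of the transporter that loads peptides onto class I molecules, was at 121, 144 and 137 against 365, 305 and 253 CPM. Its difference was 1.20 ± 0.16 (log2, SE) with an adjusted p of 0.00019. H2-DMa, which edits the class II peptide, was at 7.67, 12.2 and 7.58 against 38.5, 54.1 and 48.1 CPM, with no overlap, but it was not called without small intestinal library 1 or 3 (adjusted p up to 0.085). Cd74, the class II invariant chain, was at 247, 560 and 265 against 1641, 1813 and 1573 CPM. Its ranges were far apart, yet it did not pass (log2 difference 2.23 ± 0.76 SE, adjusted p = 0.11), and the class II genes H2-Ab1, H2-Aa, H2-Eb1 and their activator gene Ciita did not pass either (adjusted p from 0.14 to 0.35). Of the 8 myeloid genes tested, Cd74 included, none was called by edgeR. The macrophage genes were low in both tissues, where Lyz2 averaged 35.0 against 30.4 CPM, Csf1r 10.5 against 7.18 CPM, C1qa 5.47 against 5.30 CPM and Adgre1 0.627 against 2.67 CPM. The part of myeloid RNA in the Cd74 values was not tested. H2-Q6 has near-identical neighbours in its family, so its counts are uncertain.

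Cd274, Ubd and Slfn4, which are in none of these lists, are among the largest gate-enriched rises. Cd274, which encodes the T cell inhibitor PD-L1, was at 36.1, 41.5 and 44.7 against 269, 185 and 162 CPM (log2 difference 2.33 ± 0.35 SE, adjusted p = 0.00054). Ubd, a ubiquitin-like protein induced by inflammatory cytokines, was at 1.24, 6.5 and 1.72 against 44.3, 53.9 and 30.2 CPM. Both were fully separated between the tissues and called with each library left out. Slfn4 was at 1.36, 1.38 and 0.862 against 30.7, 41.9 and 24.3 CPM, but its adjusted p of 0.033 rose to between 0.054 and 0.12 whichever library was left out. Among innate sensing genes, 2 of 21 were higher, the adaptor gene Myd88 at 123, 147 and 141 against 289, 228 and 219 CPM and the endotoxin receptor gene Tlr4 at 11.9, 12.1 and 9.13 against 24.3, 22.0 and 29.3 CPM. The call of Tlr4 was lost without colonic library 3 and without each small intestinal library (adjusted p up to 0.10).

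**Figure D3:**
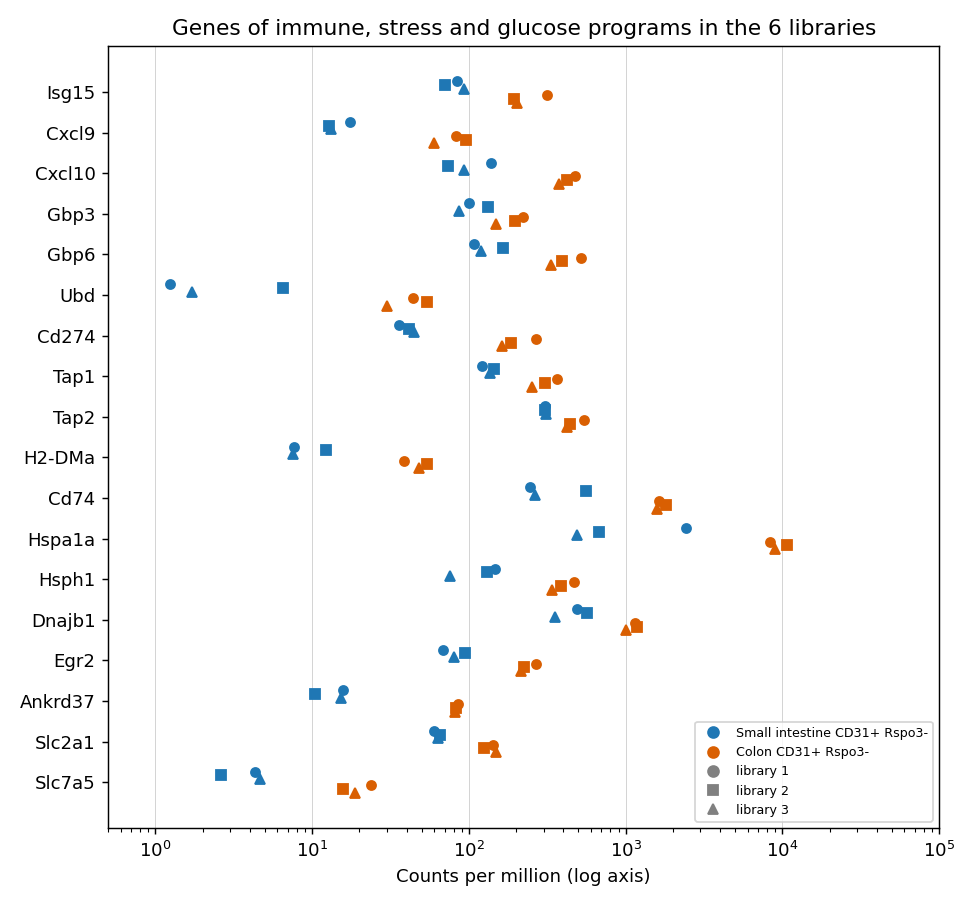
Levels of genes of interferon response, antigen presentation, heat shock and glucose use (CPM, log axis) in the 3 small intestinal (blue) and 3 colonic (orange) CD31+ Rspo3- libraries. For every gene drawn the 3 colonic libraries lie above the 3 small intestinal ones, and small intestinal library 1 has the highest small intestinal Hspa1a level, at 2441 CPM.

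Heat shock genes made up most of the stress genes that rose. Of 23 genes of both kinds, 6 were higher in the colon (Hspa1a, Hspa1b, Hsph1, Dnajb1, Egr2 and Fosl1) and none lower by edgeR. Hspa1a, the inducible HSP70 chaperone, was at 2441, 675 and 490 against 8334, 10634 and 9014 CPM. The count of 6 was 3 without small intestinal library 2 or 3. Hspa1b, its near-identical copy, was at 2312, 552 and 368 against 8548, 11238 and 9446 CPM, and reads of the pair may have been split between them. Both calls were lost without small intestinal library 2 or 3, and that of Hspa1b also without colonic library 2 or 3 (adjusted p up to 0.12), while that of Hsph1, the HSP110 co-chaperone, was kept, at 146, 131 and 75.5 against 470, 389 and 340 CPM. Dnajb1, an HSP40 co-chaperone, was at 489, 568 and 356 against 1148, 1187 and 998 CPM and also kept its call. Egr2, an immediate early transcription factor, had an adjusted p of 2.7e-05, at 68.3, 93.9 and 80.8 against 270, 224 and 216 CPM. Fos was at 6434, 6905 and 5702 against 9250, 8620 and 8000 CPM and Egr1 at 5938, 8368 and 8321 against 9137, 6915 and 7521 CPM, neither called (adjusted p = 0.25 and 0.93). Tissue dissociation is a known inducer of these genes, and its part was not tested. The heat shock element, searched on both strands as GAA, any 2 bases, TTC, any 2 bases and GAA, was found in none of 19 promoters of the list and in 0.454% of all.

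Genes of glucose use and of the hypoxia response were higher in part. Of 23 such genes 4 were called higher and none lower by edgeR, and 11 had all colonic libraries above the small intestinal ones. Ankrd37, a target of the hypoxia-inducible factors (chr8:45996902-46005707 of mm10), was at 15.7, 10.4 and 15.3 against 85.8, 82.5 and 81.0 CPM. The colonic values spread by 2.43 CPM (SD) around 83.1 CPM, and the log2 difference of 2.59 ± 0.23 (SE) had an adjusted p of 1.1e-05. Slc2a1, the glucose transporter GLUT1, was at 60.3, 65.1 and 63.2 against 143, 124 and 149 CPM, again fully separated. Ldha, lactate dehydrogenase, was at 633, 513 and 609 against 1089, 954 and 955 CPM, and Hk2, a hexokinase, at 0.472, 2.21 and 0.775 against 7.79, 4.10 and 24.4 CPM. Ldha lost its call without colonic library 1 or small intestinal library 2 (adjusted p up to 0.090). Vegfa and Hif1a were not called, at means of 58.7 against 60.7 CPM and 162 against 237 CPM.

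The core hypoxia response element ACGTG, searched on both strands in the same 250 bases, was found in the promoters of all 4 called genes and in 15 of 21 of the list, against 23.7% of all promoters. It is shown for the 2 with the smallest adjusted p, at chr8:45999851-45999930 (minus strand) for Ankrd37 and chr4:119108665-119108744 (plus) for Slc2a1 (RefSeq, GRCm38.p6, 80 bases ending just before the start, matches in capitals).
Ankrd37: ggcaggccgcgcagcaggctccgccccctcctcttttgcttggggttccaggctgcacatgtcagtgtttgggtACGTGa
Slc2a1: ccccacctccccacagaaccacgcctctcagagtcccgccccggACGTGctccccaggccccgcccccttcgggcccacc
The match of Ankrd37 shown, 1 of 2 in the 250 bases, begins 6 bases before the start, and that of Slc2a1 36 bases before it. The RefSeq start used for Ankrd37 lies inside the gene span given above.

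Transporter genes were higher in part. Of 24 solute and water transport genes, 4 (16.7%) were higher (Slc2a1, Slc7a5, Slc16a1 and Kcnj8) and none lower by edgeR. Over all genes tested 2.72% were higher and 1.71% lower. Slc7a5, which carries large neutral amino acids, was at 4.31, 2.63 and 4.65 against 23.8, 15.7 and 18.8 CPM (log2 difference 2.33 ± 0.39 SE, adjusted p = 0.0014). Slc16a1, a lactate transporter, was at 46.7, 22.6 and 40.2 against 130, 109 and 104 CPM, separated, but its adjusted p of 0.044 was lost whichever library was left out (adjusted p up to 0.19). Kcnj8 and Abcc9, the pore and the regulatory subunit of an ATP-sensitive potassium channel and common pericyte markers, were at 18.9, 20.6 and 28.8 against 42.9, 35.5 and 59.9 CPM and at 14.8, 7.75 and 14.7 against 41.5, 36.2 and 44.5 CPM. The call of Kcnj8 was lost without colonic library 3 or small intestinal library 2 (adjusted p up to 0.067). The pericyte list summed to 569, 369 and 515 against 976, 578 and 867 CPM, and its other 8 members, Rgs5 and Pdgfrb among them, were not called. Its part in the channel genes was not tested. Among 30 lipid genes, Acsl3 (higher) and Slc27a4 (lower) were called (6.67%). The fatty acid receptor gene Cd36 was at 1812, 1960 and 1823 against 928, 1453 and 1011 CPM with an edgeR adjusted p of 0.52. The edgeR call of Acsl3 was lost without colonic library 1 or 3 or small intestinal library 1 or 2 (adjusted p up to 0.18).

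Genes of clotting moved in both directions. Of 17 coagulation genes, 5 were higher and 2 lower in the colon. Plat, tissue plasminogen activator, which starts clot dissolution (chr8:22757727-22782844 of mm10), was at 954, 2672 and 1360 CPM in small intestinal and 486, 450 and 420 CPM in colonic libraries. Each colonic library was below each small intestinal one (log2 difference -1.88 ± 0.39 SE, adjusted p = 0.0078), and without small intestinal library 2, the highest, the adjusted p was 0.053. On the anticoagulant side, the protein C receptor gene Procr was at 195, 106 and 170 against 387, 396 and 311 CPM and the thrombomodulin gene Thbd at 540, 282 and 371 against 918, 765 and 719 CPM. The thrombin receptor gene F2r was at 134, 134 and 149 against 202, 292 and 357 CPM. F3, tissue factor, was higher too. The calls of Procr, Thbd and F2r were each lost without small intestinal library 2, and those of Thbd and F2r also without others (adjusted p up to 0.13). The complement inhibitor gene Cd59a was lower, at 80.9, 132 and 81.5 against 48.0, 53.0 and 45.8 CPM, and it lost its call without colonic library 1 or 3 or small intestinal library 2 (adjusted p up to 0.13).

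Of 28 chemokines and cytokines, 3 were higher (Cxcl9, Cxcl10 and Cxcl12) and 3 lower in the colon (Ccl25, Il33 and Il7). Il33, an alarmin for innate lymphoid cells, was at 122, 256 and 302 against 49.2, 49.7 and 59.1 CPM. The tissues did not overlap, and the log2 difference was -2.11 ± 0.30 (SE, adjusted p = 0.00027). Il7, the lymphocyte survival factor of lymphatic endothelium, was at 20.6, 29.3 and 47.7 against 11.6, 18.4 and 16.2 CPM. Its call was lost without colonic library 1 or 3 or small intestinal library 3 (adjusted p up to 0.16). Both cytokines had higher means in CD31+ Rspo3+ cells, Il33 at 1206 and 217 CPM and Il7 at 152 and 242 CPM in small intestine and colon. Cxcl12, which retains CXCR4-bearing cells, was at 760, 201 and 421 against 980, 1032 and 1368 CPM, with the call lost without colonic library 3 or small intestinal library 2 or 3 (adjusted p up to 0.098).

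Morphogen pathways differed at single genes. Wnt2, a canonical Wnt ligand (chr6:17988940-18030585 of mm10), was at 23.3, 28.1 and 45.3 CPM in small intestinal and 0.599, 3.57 and 3.15 CPM in colonic libraries. The groups were far apart, and the log2 difference was -3.71 ± 0.52 (SE, adjusted p = 0.00026). The mean in small intestinal CD31+ Rspo3+ cells was higher still, at 278 CPM, against 0.351 CPM in CD31- Rspo3- cells of that tissue. Of 30 Wnt and R-spondin genes, 4 were higher in the colon (Wnt5b, Sfrp2, Wif1 and Dkk3), and all 4 had their higher colonic mean in CD31- Rspo3- cells. The edgeR call of Dkk3 was lost without colonic library 3 or small intestinal library 1 or 3 (adjusted p up to 0.22). Fzd5, a Wnt receptor outside that list, was at 8.38, 6.37 and 5.51 against 39.0, 38.2 and 38.9 CPM, and its colonic means were at most 11.8 CPM in the 3 other gates.

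Retinoic acid, made from vitamin A, patterns small intestinal tissue, and 3 of 14 genes of its pathway were lower and 1 higher in the colon. Rarb, a receptor induced by its own ligand, was at 30.7, 36.7 and 48.0 against 8.24, 5.26 and 5.91 CPM (log2 difference -2.57 ± 0.43 SE, adjusted p = 0.0013). Cyp26b1, which degrades retinoic acid, was at 115, 91.4 and 319 against 39.4, 8.20 and 11.3 CPM, not overlapping but variable, and lost its call without colonic library 2 or 3 or small intestinal library 3 (adjusted p up to 0.14). Dhrs3, a retinal reductase, was lower too, and Rbp4, the plasma retinol carrier, higher, with its colonic mean higher in CD31- Rspo3- cells (184 CPM). The edgeR call of Dhrs3 was lost without each colonic library and without small intestinal library 2 or 3 (adjusted p up to 0.14). Of 31 BMP and TGF-beta genes, 5 were higher (Bmp4, Bmp5, Gdf15, Id2 and Id3) and none lower by edgeR. Id3, a BMP target that restrains differentiation, was at 769, 571 and 920 against 1347, 1517 and 1310 CPM, though its call was lost without small intestinal library 2 (adjusted p = 0.096), and Id2 was at 110, 110 and 140 against 208, 212 and 190 CPM. Bmp5 was at 10.2, 6.85 and 8.44 against 21.5, 26.4 and 111 CPM and was highest in colonic library 3, as the fibroblast sum was. Of 16 Notch genes, the targets Hes1 and Heyl were higher, and the targets Hey1, Hey2 and Nrarp and all receptors and ligands of the list were uncalled. Heyl lost its call without small intestinal library 2 (adjusted p = 0.056). Hes1 was at 821, 701 and 963 against 1871, 2032 and 1963 CPM, fully separated and called with each library left out.

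Xenobiotic metabolism showed 4 of 19 genes lower and 1 higher in the colon. Cyp1b1, a target of the aryl hydrocarbon receptor, was at 165, 132 and 144 against 47.9, 29.3 and 35.1 CPM (log2 difference -1.98 ± 0.48 SE, adjusted p = 0.020), and was not called without colonic library 2 or 3 (adjusted p up to 0.081). Cyp1a1, its best known target, was at 82.2, 109 and 103 against 30.6, 40.2 and 42.3 CPM and did not pass (adjusted p = 0.15). Cyp4b1, a fatty acid and xenobiotic hydroxylase, was at 415, 758 and 879 against 116, 103 and 87.5 CPM, with an adjusted p of 0.00086. Hmox1, heme oxygenase, was at 16.5, 4.77 and 13.2 against 37.2, 40.0 and 40.3 CPM.

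Some lymphatic genes were lower in the colonic cells. Of 15 lymphatic genes, 5 were lower (Mmrn1, Reln, Prox1, Sema3d and Nts), 1 higher (Gja1), and 9 were separated downward, with a median log2 difference of -1.30. Mmrn1, a secreted glycoprotein of lymphatic vessels, was at 1446, 3731 and 2965 against 434, 520 and 399 CPM (adjusted p = 0.0097), and stayed called with each library left out. Reln was at 168, 145 and 273 against 39.8, 53.7 and 35.2 CPM. Prox1 was at 72.5, 84.6 and 94.0 against 31.2, 44.9 and 19.8 CPM. The other 4 falls were each lost without 3 or more of the 6 libraries (adjusted p up to 0.16), and the number of lymphatic genes lower in the colon was 1 without colonic library 1, colonic library 3 or small intestinal library 3, and 2 without small intestinal library 2. Lyve1 was at 548, 392 and 1073 against 225, 329 and 227 CPM and Flt4 at 248, 176 and 335 against 114, 118 and 97.5 CPM, both separated but not called (adjusted p = 0.11 and 0.23). Ccl21a, which guides dendritic cells into lymphatics, ran the other way without passing, at 618, 741 and 1245 against 1295, 1334 and 1103 CPM. Summed over the list, these genes stood at 4063, 6288 and 7005 against 3486, 3418 and 3075 CPM, compared with 33569 to 52836 CPM in the CD31+ Rspo3+ libraries.

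Of the 103 gate-enriched genes lower in the colon, 60 (58.3%) had a still higher mean in small intestinal CD31+ Rspo3+ cells, against 37.9% of all 3655 gate-enriched genes with a lower colonic value. Of the 233 higher in the colon, 19 (8.15%) had a higher mean in colonic CD31+ Rspo3+ cells, against 23.8% of 4199. Alox12e, Dnah6, Prkcq, Apba2 and Tbx1 were among the 60. Prkcq, a protein kinase C, was at 23.8, 34.6 and 41.4 against 4.54, 8.15 and 5.0 CPM, and averaged 249 and 151 CPM in the reporter-positive cells of small intestine and colon. Fgl2, a coagulant and immunoregulatory protein, was at 794, 1248 and 1403 against 402, 535 and 541 CPM, and averaged 4585 and 5411 CPM there. The share of reporter-positive or lymphatic cells in the reporter-negative gate was not measured, and its part in these falls was not tested. Plat, Fbln5, Bicd1 and Rbm24 stood outside this pattern, with means of 44.0, 118, 8.63 and 0.414 CPM in small intestinal CD31+ Rspo3+ cells, below those of the reporter-negative gate. The edgeR call of Rbm24 was lost without each colonic library and without small intestinal library 1 or 2 (adjusted p up to 0.12). Bicd1, a dynein adaptor, was at 16.7, 16.7 and 12.9 against 4.34, 2.41 and 3.41 CPM and was called with each library left out.

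**Figure D4:**
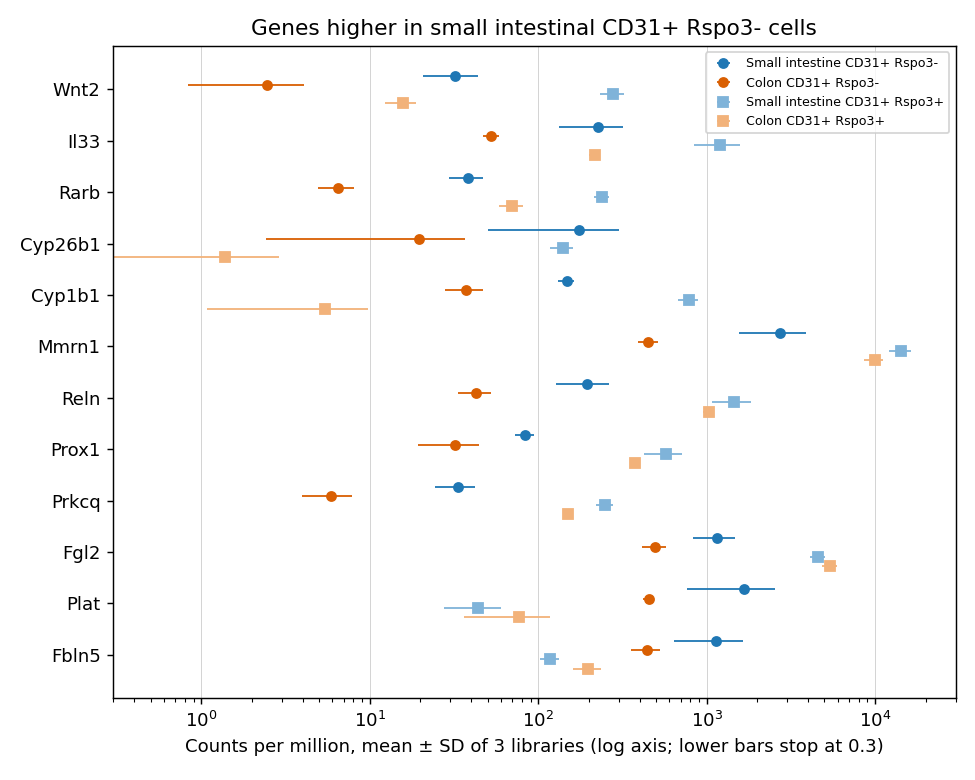
Mean ± SD over 3 libraries (CPM, log axis) of 12 genes lower in the colon, in CD31+ Rspo3- cells (circles) and CD31+ Rspo3+ cells (squares) of small intestine (blue shades) and colon (orange shades). Wnt2, Il33, Rarb, Cyp1b1, Mmrn1, Reln, Prox1, Prkcq and Fgl2 are highest in a reporter-positive group, while Cyp26b1, Plat and Fbln5 are highest in small intestinal CD31+ Rspo3- cells.

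The tissue difference was next set against those of the other gates, which share no library with it. Nothing says whether the gates of a tissue share mice or preparations, so agreement between gates need not be independent. In CD31+ Rspo3+ cells 2.83% of genes were higher and 3.52% lower in the colon, in CD31- Rspo3- cells 8.79% and 8.81%, and in CD31- Rspo3+ cells 3.62% and 3.40%. All 4 gates called 125 genes in the same direction (0.656% of those tested), 49 higher and 76 lower, of which 11 and 2 were gate-enriched in CD31+ Rspo3-. Of the 518 genes higher in colonic CD31+ Rspo3- cells, 109 were also called higher in CD31+ Rspo3+ cells, 393 were not called there and 16 were called lower, and of the 326 lower ones 155 were called lower, 169 not called and 2 called higher. The difference of the differences was itself called for 367 genes (1.93%) against CD31+ Rspo3+ and for 949 (4.98%) against CD31- Rspo3-.

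Stress genes differed between the reporter-negative and reporter-positive endothelium. Of the 23 immediate early and heat shock genes, 12 were lower in the colon in CD31+ Rspo3+ cells and none there was higher by edgeR, and for 10 of the 23 the difference between the gates was called, each toward the colon in the reporter-negative gate. In CD31- Rspo3- cells 11 of the 23 were higher in the colon and 0 lower (median log2 difference 0.69, against 0.31 in CD31+ Rspo3- cells). The difference between these 2 gates was called for 0 of the 23. In CD31- Rspo3+ cells 6 were higher and 1 lower. Fos fell from a mean of 8988 to 2229 CPM in CD31+ Rspo3+ cells and averaged 6347 and 8623 CPM in CD31+ Rspo3- cells (difference of the log2 differences 2.45, adjusted p = 0.00012). Egr1 and Egr2 differed in the same sense, by 2.15 and 1.70. Isg15 averaged 133 and 84.7 CPM in CD31+ Rspo3+ cells, not called, and its rise in the reporter-negative gate differed from that by 2.17 (log2, adjusted p = 0.00041), and it also differed from that in CD31- Rspo3- cells, by 1.24. Slc2a1, Slc7a5, Cd274, Fzd5 and Ankrd37 likewise rose more than in reporter-positive endothelium, by 1.59, 2.28, 2.12, 2.13 and 1.59. Kcnj8 and Abcc9 were opposite in the 2 gates, Kcnj8 falling from 338 to 76.3 CPM in CD31+ Rspo3+ cells, with differences of 3.17 and 3.39.

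In the other sense, Plat and Fbln5 fell in CD31+ Rspo3- cells and were not called in CD31+ Rspo3+ cells, with differences between the gates of -2.69 and -2.13 (adjusted p = 0.011 and 0.0021 in edgeR's quasi-likelihood test). Cyp1a1 and Cyp1b1 had tissue differences of -7.03 and -7.18 (log2) in CD31+ Rspo3+ cells. The smaller differences in CD31+ Rspo3- cells differed from these by 5.66 and 5.20 (adjusted p = 0.00052 and 0.00041). Capg, an actin-capping protein, averaged 97.3 and 144 CPM in CD31+ Rspo3- cells and 10.3 and 109 CPM in CD31+ Rspo3+ cells. Wnt2 fell in both CD31+ gates (-3.71 and -4.15), with no difference between them detectable (0.44, adjusted p = 0.86).

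**Figure D5:**
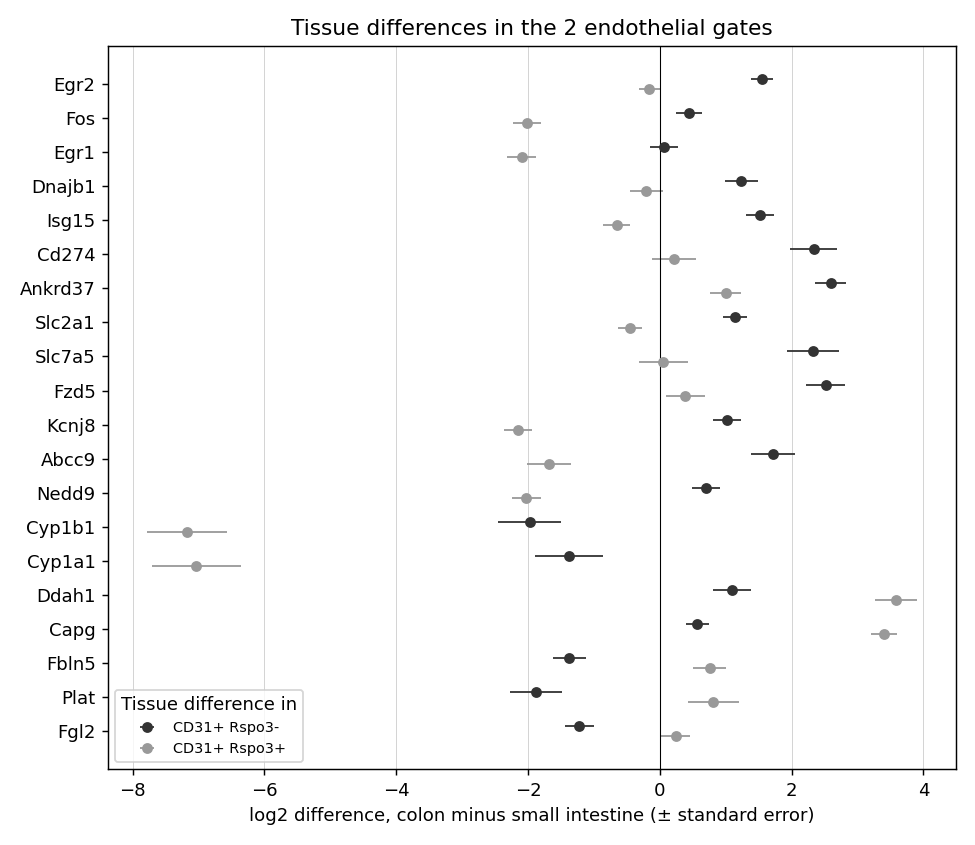
Colon minus small intestine (log2 difference ± standard error) for 20 genes in CD31+ Rspo3- cells (black) and CD31+ Rspo3+ cells (grey). Egr2, Isg15, Slc2a1, Kcnj8 and Abcc9 lie to the right of 0 in the reporter-negative gate only, and Plat, Fbln5 and Fgl2 to the left of 0 in that gate only.

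Genes whose tissue difference stood apart from both reference gates were few. In the same direction against CD31+ Rspo3+ and against CD31- Rspo3- cells, 20 of the genes higher in the colon differed, 14 of them gate-enriched, and 14 of those lower, 11 of them gate-enriched. The call and both contrasts use the same 6 CD31+ Rspo3- libraries, so passing both is not independent support. Among the 20, Dnaic2, C2cd4a, Ccdc74a and Fgf18 had means of 0 in small intestinal and 0.425 to 1.51 CPM in colonic CD31+ Rspo3- cells. Also among the 20 were Ankrd37, Fzd5, Isg15, the microtubule-severing subunit gene Katna1, the replication clamp gene Pcna and Pramef8. Katna1 was at 34.5, 34.5 and 41.4 against 128, 103 and 95.3 CPM, and averaged 41.8 and 37.8 CPM in CD31+ Rspo3+ cells. Pcna was at 100, 128 and 136 against 304, 251 and 230 CPM, while the proliferation marker Mki67 stayed between 1.5 and 2.37 CPM in all 6 libraries. Plat, Prkcq, Apba2, Fgl2, Il7 and Cd59a were among the 14 genes lower in the colon. Abundant gate-enriched genes with small adjusted p also included Nolc1, a nucleolar chaperone, at 55.4, 40.6 and 55.5 against 199, 142 and 136 CPM, Crtc2, a CREB coactivator, at 79.4, 94.9 and 83.9 against 332, 198 and 191 CPM, and Btg1, an antiproliferative gene, at 576, 791 and 555 against 1520, 1278 and 1261 CPM. Arc, an activity-regulated immediate early gene of neurons, was at 41.4, 48.0 and 37.9 against 301, 242 and 250 CPM and was called in CD31+ Rspo3+ cells as well, at lower levels (means of 2.72 and 9.43 CPM). Katna1, Nolc1, Crtc2, Btg1 and Arc were each separated between the tissues and were called with each library left out.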

How the data were processed

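RNA of sorted intestinal stromal cells was measured by SMART-Seq v4 RNA-seq, which does not mark strand, in 24 libraries (8 groups of 3). The estimated counts per gene and the log2 TPM values were deposited by the authors. Salmon 1.3.0, R 4.0.1 and mm10 are named in the submitters' processing notes, and replicate handling before deposit is not given in the sources used here. Of 54418 gene IDs, 99.41% were found in GENCODE M21. Counts were rounded and scaled by TMM, and edgeR's filterByExpr, with 10 as minimum count and 15 as minimum total, kept 19050 genes. All 8 groups entered 1 edgeR 4.0.16 quasi-likelihood fit (R 4.3.3) with Benjamini-Hochberg adjustment over all genes tested, and differences between gates were contrasts of that fit. The alternatives were DESeq2 1.42.0, its size factors in edgeR, limma 3.58.1 (voom, and the deposited log2 TPM), no filter, only the 6 compared libraries, and each of these libraries left out. Tested on simulated data for this comparison (18517 genes), edgeR recovered 28 of 50 rises and 28 of 50 falls of 4-fold, and 0 of 50 rises and 2 of 50 falls of 2-fold, so an uncalled gene may still differ. In the data themselves edgeR called some differences under 2-fold, such as that of Cdipt (log2 difference 0.59, adjusted p = 0.0078). The simulated shares therefore need not hold for every gene.

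Replicates within a group correlated at 0.953 to 0.980 and differed beyond sampling noise. A floor of 3 counts over a group bounded folds against 0 and covers counting error only. Named genes were Pecam1, Rspo3 and Grem1, the 12 largest gate-enriched rises and falls that did not overlap and reached 10 CPM, the 5 largest each way without the gate condition, the 8 smallest adjusted p at 100 CPM or more, up to 4 called members of each list each way with defining members, and the 5 smallest adjusted p of each difference between gates. Other genes were named after their values were seen. The lists (51, with 762 genes) and members were chosen with earlier results of these data known. RefSeq promoters were searched for 7 motifs on both strands. Besides the interferon, heat shock and hypoxia elements these were GATAAG, TGACGTCA and TTGCGTG, which were in 6.164%, 2.757% and 1.52% of all promoters. Some genes of the lists are not reported here.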

Additional observations from a re-analysis of the deposited data

Results flagged for a closer look

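For the genes that follow, the tissue difference (colon minus small intestine, log2) in CD31+ Rspo3- cells differed by edgeR's quasi-likelihood test from that of another gate, with an adjusted p under 0.05 over all genes. Each value is the difference between the 2 tissue differences. A positive value means a larger colonic level relative to the small intestine in CD31+ Rspo3- cells.

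Against CD31+ Rspo3+ cells, positive differences were Trim69 3.42, Kcnj8 3.17, Nedd9 2.73, Pramef8 2.42, Slc7a5 2.28, Isg15 2.17, Fzd5 2.13, Cd274 2.12, Katna1 1.71, Egr2 1.70, Ankrd37 1.59, Crtc2 1.5, Nolc1 1.37 and Btg1 1.11. Nedd9, a focal adhesion scaffold, was not itself called in CD31+ Rspo3- cells (144, 134 and 156 against 274, 235 and 198 CPM, adjusted p = 0.064) but fell from 274 to 67.0 CPM in CD31+ Rspo3+ cells. Negative differences were Capg -2.83, Bicd1 -2.75, Sfxn3 -2.07, Apba2 -1.85, Prkcq -1.77 and Fgl2 -1.46. Sfxn3, a mitochondrial carrier, was at 71.2, 89.0 and 69.4 against 67.2, 78.7 and 78.5 CPM here and rose from 15.9 to 64.7 CPM in CD31+ Rspo3+ cells.

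Against CD31- Rspo3- cells, positive differences were Slc25a15 4.27, H2-DMa 3.95, Ubd 3.73, Fzd5 3.71, Bpnt1 3.20, Acsl5 3.06, Lap3 3.03, Pramef8 1.41, Katna1 1.31, Isg15 1.24 and Ankrd37 1.21. Slc25a15, Bpnt1, Acsl5 and Lap3 had their highest means in small intestinal CD31- Rspo3- cells, at 141, 439, 1398 and 241 CPM, where the enterocyte gene Apoa1 averaged 6065 CPM. The part of epithelial RNA in these differences was not tested. Negative differences were Wnt2 -9.06, Dnah6 -5.99, Fgl2 -3.50, Apba2 -3.09, Rbm24 -2.78, Prkcq -2.55, Sfxn3 -1.47 and Capg -1.07.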

How the results depend on the processing

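No paired analysis of the tissue difference itself was possible because the columns carry no replicate number. Same-numbered libraries of both tissues did not deviate together (48 correlations of deviations from group means, -0.24 to 0.09). Differently numbered libraries of both tissues correlated at -0.18 to 0.26 (22 of 96 over 0.1). Deviations from a group mean sum to 0 in each group, so negative correlations for some pairings bring positive ones for others. Whether deviations were shared across tissues is therefore not settled, and column order may not match libraries between the tissues. Within a tissue the 4 gates have consecutive column numbers, and their deviations correlated at 0.03 to 0.33 (22 of 36 over 0.1), against -0.32 to 0.13 between numbers. These 2 ranges are tied to each other by the same sum. A replicate block of these 4 libraries, added after seeing the data, gave 449 differences from CD31+ Rspo3+ cells (330 of the 367 kept) and 1035 from CD31- Rspo3- cells (862 of the 949 kept), and of the 39 gene differences given above kept all but that of Prkcq from CD31+ Rspo3+ cells (adjusted p = 0.066). Of the 121 named genes called, 56 were called under all 12 alternatives, 52 lost their call with only the 6 compared libraries, and none reversed. The count of 844 called genes became 1531 with DESeq2 (911 higher, 620 lower), 320 with only the 6 compared libraries (144 higher, 176 lower) and 523 to 804 with 1 library left out (269 to 484 higher, 207 to 377 lower, the lowest total without small intestinal library 2). Limma on log2 TPM called 585 lower. Split by direction, 61.4% were higher, against 41.5% with log2 TPM, 45% with only the compared libraries, 50.4% without colonic library 3 and 51.4% without small intestinal library 2. Differences from CD31+ Rspo3+ cells numbered 790 with DESeq2 and 233 to 374 with 1 library left out, against 367, and those from CD31- Rspo3- cells 1511 with DESeq2, 2119 with log2 TPM and 681 to 839 with 1 library left out, against 949. Genes shared by all 4 gates numbered 73 with limma voom and 94 to 112 with 1 library left out, against 125. Lymphatic genes lower in the colon were 8 with limma voom and 1 to 5 with 1 library left out, and higher 0 with edgeR on only the compared libraries and 0 to 1 with 1 library left out. Interferon genes higher in the colon were 6 with log2 TPM, 3 with only the compared libraries and 5 to 10 with 1 library left out. With 1 library left out, MHC genes higher were 3 to 5 and stress genes higher 3 to 5. The fit of only the compared libraries tested fewer genes (15820) on fewer samples. Otherwise the cause was not tested.

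The 3 libraries per tissue limit what can be called: 3442 genes had an unadjusted p under 0.05 and 844 an adjusted one. Small intestinal libraries were shallower than colonic ones.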
